A study of Oryctolagus cuniculus with 9 samples.

Results

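Repair tissue from cartilage defects that had received the CLCS scaffold was compared with healthy cartilage, by RNA sequencing of rabbit knees 12 weeks after surgery. The libraries were chosen by their sample labels and column headers alone, namely the 3 labelled CLCS and the 3 labelled as healthy controls, which are 6 of the 9 libraries of the series. All 14870 genes listed for them were read, and 3294 had enough reads to be tested. CLCS is a porous sponge of collagen joined to chondroitin sulphate. New Zealand White rabbits, aged 4 to 5 months, had a drilled full-thickness defect in the trochlear groove of each femur. The scaffold filled the defect of the right knee, and the defect of the left knee stayed empty (3 untreated libraries, given here beside the others). The healthy tissue had neither a defect nor an implant. The scheme of the study draws it on the condyle, but its site is not stated in words in the sources used here. The groups may thus differ in joint site too, in which case the treatment and the site cannot be told apart. Whether the healthy samples came from the operated rabbits, and whether a library pools animals, is not stated in the sources used here. The p-values then measure only the spread between these libraries.

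Articular cartilage is held together by fibrils of type II collagen with smaller amounts of types IX and XI, and its stiffness under load comes from aggrecan, a proteoglycan rich in chondroitin sulphate. Chondrocytes keep up this matrix in a tissue without vessels. After a full-thickness injury, cells from the marrow and the synovium enter the defect, and the tissue they lay down is often fibrous, rich in type I collagen, or turns into bone in its deeper part.

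The recovered read counts were low, with sums of 751908 to 944448 in the healthy and 780191 to 1226408 in the CLCS samples. These sums lie far below the reads that the paper reports for each library, and the cause of the gap was not tested. A single gene without a symbol, ENSOCUG00000023467, took 18.3% to 28.3% of the healthy and 20.2% to 49.4% of the CLCS reads, with the highest share in CLCS replicate 3. Chondrocyte markers were present in every library. Of the 10 listed markers 7 are in the table and 5 were tested, and their summed level was 7663 to 10340 normalised reads in healthy and 9721 to 27200 in CLCS samples. Most of that sum was COL2A1, and its upper end was CLCS replicate 3 alone. Normalised reads are read counts after division by the size factor that DESeq2 gives each library. Transcription factors of chondrocytes could not be followed, since none of the 16 that are listed had enough reads for a test.

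At 12 weeks, 104 genes differed between CLCS treated defects and healthy cartilage, 3.16% of those tested. The test was limma with unpaired libraries on log2 of the normalised reads plus 1, at an adjusted p under 0.05. Of the 104 genes, the CLCS samples were higher in 70 (2.13% of the tested genes) and lower in 34 (1.03%). The increases ran from 1.43 to 4.69 on the log2 scale, with a median of 2.22, and the decreases from 1.35 to 4.10, with a median size of 2.26, or 2.19 when genes without a read in any CLCS library are set at their bound. Fibrous collagens, periostin, bone sialoprotein and a collagenase were among the genes that rose. Cartilage intermediate layer protein, osteoglycin and the BMP antagonist gremlin were among those that fell. The groups did not overlap in any of the 104 genes, and they did not overlap in 24.2% of all tested genes. Before adjustment 576 genes, 17.5% of those tested, had a p under 0.05, and counts at that level in the gene lists stand against this share. The count depended on which library was left out. Without CLCS replicate 1 no gene passed limma, with 436 genes at an unadjusted p under 0.05. Without healthy replicate 3 only 19 passed, and the other 4 omissions left 25 to 81. Each omission also leaves fewer libraries in a group, and how far that had a part was not tested. An exact two-sided permutation test of any 1 gene could not fall below p = 0.1 with 3 libraries in each group. In bulk tissue, fewer cells of a kind and less RNA in each cell cannot be told apart.

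**Figure D1:**
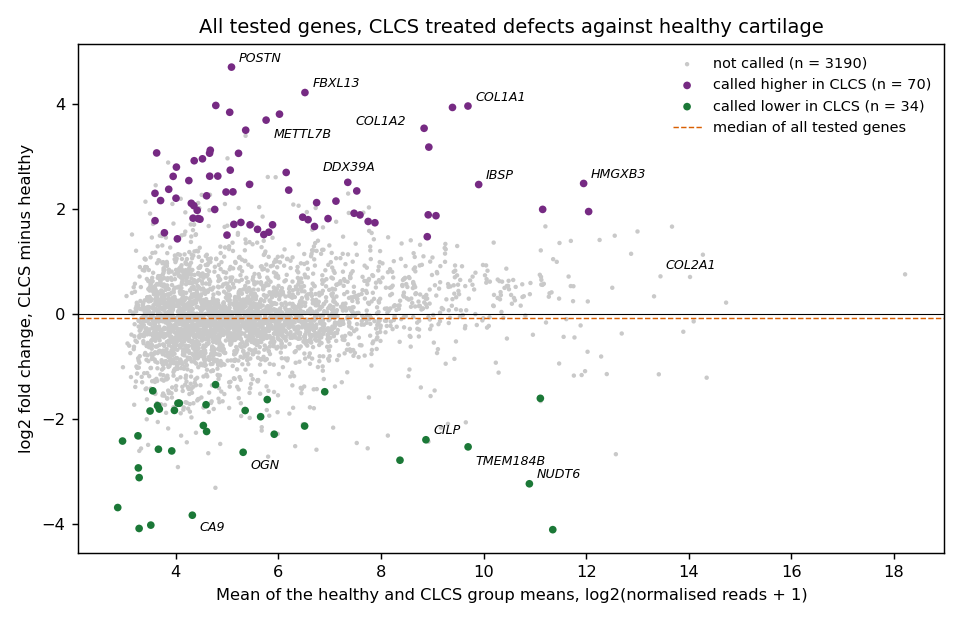
Each point is 1 of the 3294 tested genes. The horizontal axis is the log2 of the mean of the healthy and CLCS group means plus 1, and the vertical axis the log2 difference, CLCS minus healthy. The 70 genes that were higher in CLCS samples (purple) and the 34 that were lower (green) lie at low and high levels alike, and the dashed line marks the median of all tested genes, -0.08.

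Type I collagen, the fibril of bone, tendon and fibrous repair tissue, is made of COL1A1 and COL1A2 chains. COL1A1 had 247, 95.4 and 36.1 normalised reads in healthy and 2052, 1208 and 1326 in CLCS samples, against 1542, 795 and 1925 in untreated defects. The lowest CLCS library thus lay above the highest healthy one, and the increase was 3.95 ± 0.65 on the log2 scale (SE, adjusted p = 0.0277). COL1A2 went from 180, 50.7 and 35.2 normalised reads to 1099, 702 and 675, an increase of 3.53 ± 0.59 (adjusted p = 0.0288). Healthy replicate 1 held more of both chains than the other healthy libraries, and both genes stayed past the threshold in only 1 of the 6 fits that left out a library. COL3A1, the type III chain of pliable tissue and early scars, was at 226, 303 and 389 normalised reads in healthy and at 508, 399 and 1798 in CLCS samples. Its groups did not overlap either, but 1 library held most of the reads and the difference of 1.25 ± 0.57 missed the threshold (adjusted p = 0.313). Of the 6 fibrous tissue collagens, 4 were tested and 2 rose, with a median difference of 2.39 against -0.08 over all tested genes.

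Periostin (POSTN), a matricellular protein of periosteum, ligament and wounds, was nearly unread in healthy cartilage, with 6.60, 1.01 and 0 normalised reads, and reached 67.2, 63.0 and 59.8 in CLCS samples. The 3 CLCS libraries lay close together, and the increase of 4.69 ± 0.67 (adjusted p = 0.0168) was the largest fitted increase among the genes that passed. POSTN was the 1 gene past the threshold among the 14 tested of 45 matricellular and fibrous matrix proteins, whose median was -0.25. Fibronectin (FN1), an adhesive glycoprotein, was at 3436, 721 and 913 normalised reads in healthy and at 558, 560 and 1048 in CLCS samples, which overlap (difference -0.93 ± 0.61, adjusted p = 0.487).

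Type XXII collagen, which sits at tissue junctions such as that of muscle and tendon, was measured by COL22A1. It had 10.4, 4.06 and 4.52 normalised reads in healthy and 53.7, 44.3 and 28.6 in CLCS samples, an increase of 2.62 ± 0.41 (adjusted p = 0.0248). It was the 1 gene called among 10 tested of the 23 other collagens, whose median was 0.41. COL4A2, a chain of the type IV collagen of basement membranes, went from 9.42, 14.2 and 6.32 to 52.7, 27.6 and 46.1 normalised reads, an increase of 1.99 ± 0.39 (adjusted p = 0.0444). With the replicate number as a block it missed the threshold (adjusted p = 0.0562). Its partner chain COL4A1 lies head to head with it, within 1000 bases, and was at 15.1, 36.5 and 6.32 against 123, 66.9 and 116 normalised reads. The difference of COL4A1, 2.60 ± 0.59, missed the threshold in limma (adjusted p = 0.0679) and passed it narrowly in edgeR (adjusted p = 0.0499). Of the 11 tested among 23 basement membrane genes, COL4A2 was the 1 that passed, and the median was 0.21. Endothelial markers, of which 1 of 15 was tested, summed to 65.95 to 88.29 normalised reads in healthy and 63.5 to 85.76 in CLCS samples, so their levels overlapped.

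**Figure D2:**
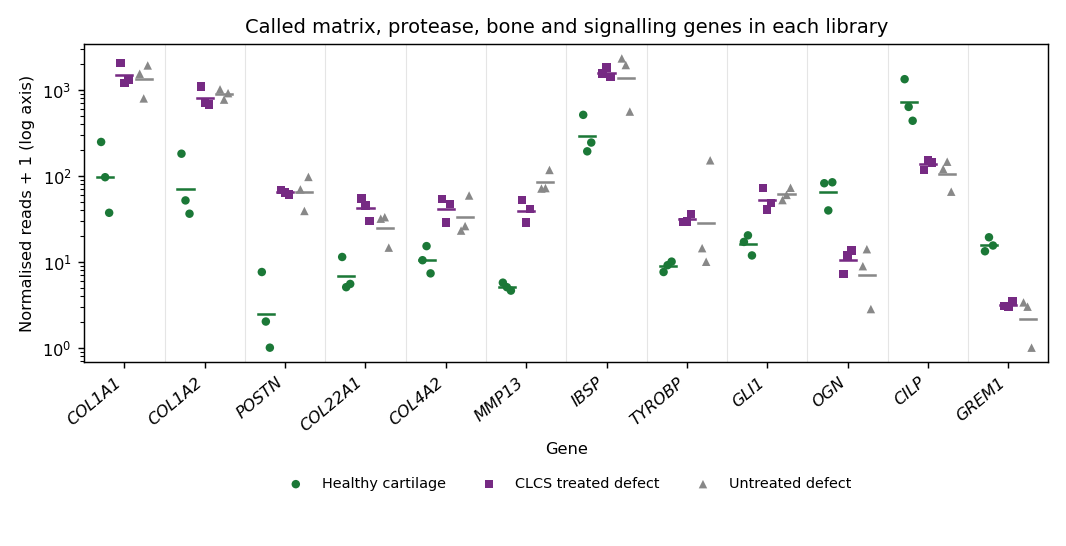
Normalised reads plus 1 on a log axis are plotted for 12 genes that differed, with 1 point for each healthy, untreated and CLCS library and a bar at the geometric mean of each group. In all 12 genes the CLCS points lie wholly above or wholly below the healthy points, and in most of them the untreated points lie among or beside the CLCS points.

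The collagens of hyaline cartilage did not pass the test in either direction. Of the 7 listed, 6 were tested and 0 passed limma or had an unadjusted p under 0.05, and their median difference was 0.21. COL2A1, the type II chain, was at 8610, 7968 and 6874 normalised reads in healthy and at 8971, 9082 and 25534 in CLCS samples. The groups stood apart by a small margin, while CLCS replicate 3, in which ENSOCUG00000023467 took the largest read share, stood far above the other CLCS libraries. The difference was 0.71 with a 95% interval from -0.32 to 1.75 (adjusted p = 0.462), and it was 0.21 without CLCS replicate 3. In untreated defects COL2A1 was at 8816, 4062 and 458 normalised reads, spread far wider than in healthy cartilage. COL11A2, a chain of the type XI collagen that starts the fibril, was at 1065, 514 and 348 against 421, 573 and 911 normalised reads (difference 0.07, interval -1.06 to 1.19). Its sign turned in some other settings, as did that of COL9A2, a type IX chain on the fibril surface, which was at 166, 474 and 258 against 193, 349 and 629 (difference 0.35, interval -0.90 to 1.60). COL11A1 was at 325, 205 and 259 against 96.1, 226 and 265 normalised reads (difference -0.52 ± 0.43, adjusted p = 0.588).

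**Figure D3:**
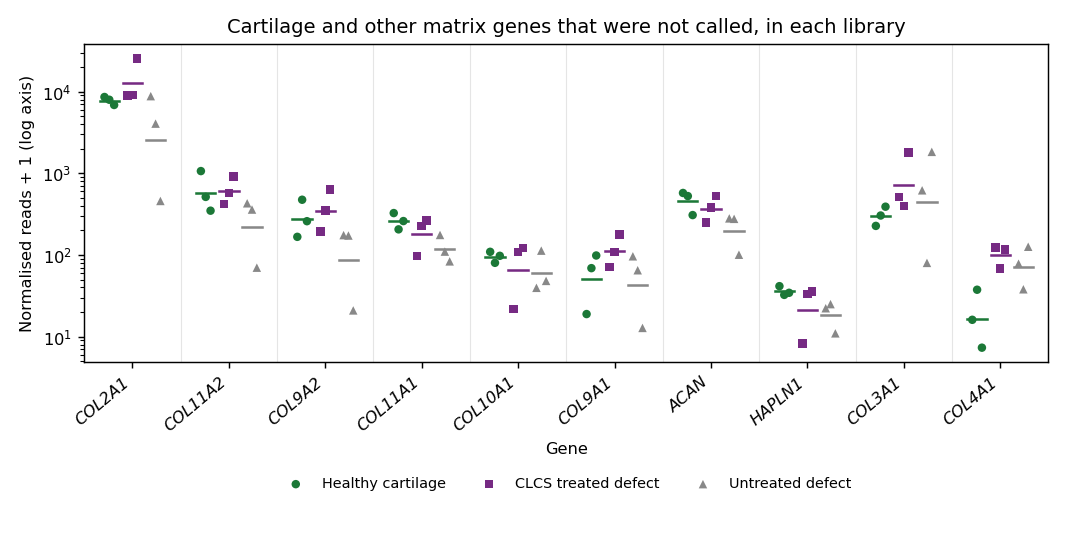
The same plot is given for 10 collagen and proteoglycan genes that did not pass the test, with normalised reads plus 1 on a log axis, 1 point per library and bars at geometric means. The healthy and CLCS points overlap or nearly touch for most genes, and the untreated points of COL2A1 run from 458 to 8816.

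Among the proteoglycans and other secreted proteins of cartilage, single genes fell while aggrecan did not pass. Aggrecan (ACAN) was at 574, 526 and 307 normalised reads in healthy and at 248, 383 and 524 in CLCS samples (difference -0.30, interval -1.21 to 0.61, adjusted p = 0.749). CILP, a matrix protein of the middle zone of cartilage, had 1332, 633 and 436 normalised reads in healthy cartilage and 116, 152 and 142 in CLCS samples. CILP fell by 2.39 ± 0.43 on the log2 scale (adjusted p = 0.0361), from 801 ± 471 to 136 ± 18.5 normalised reads (SD, n = 3), and untreated defects held 119, 145 and 64.4. The cytokine-like protein CYTL1, secreted by chondrocytes, was at 299, 59.9 and 55.1 against 40.3, 32.5 and 31.1 normalised reads. Although its groups did not overlap, healthy replicate 1 stood well above the others and the difference of -1.51 ± 0.63 missed the threshold (adjusted p = 0.274). CILP was the 1 gene called among 8 tested of 21 cartilage proteoglycans and secreted proteins, with a list median of -0.82.

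The small leucine-rich proteoglycans bind collagen fibrils and set their spacing. Osteoglycin (OGN) had 81.0, 38.6 and 83.1 normalised reads in healthy and 6.20, 10.8 and 12.5 in CLCS samples, and its reads in untreated defects were 10, 13 and 2. It fell by 2.63 ± 0.41 (adjusted p = 0.024) and was the 1 member called of 6 tested among 13, whose median was -0.69. Decorin (DCN), which binds type I collagen and TGF-beta, was at 344, 34.5 and 135 against 30.0, 29.5 and 41.1 normalised reads. Its difference of -1.79 ± 0.74 missed the threshold in limma (adjusted p = 0.273) and passed in DESeq2 (adjusted p = 0.0113). The enzymes that build and crosslink collagen (12 tested of 28, median -0.08) and those that make chondroitin sulphate and hyaluronan (4 tested of 33, median 0.13) had 0 called members in limma. At an unadjusted p under 0.05 there were 2 in the former and 1 in the latter list.

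MMP13, the collagenase that cuts type II collagen most readily and is made by hypertrophic chondrocytes and osteoblasts, was higher in CLCS samples. It had 4.71, 4.06 and 3.61 normalised reads in healthy and 51.7, 27.6 and 39.8 in CLCS samples, an increase of 2.95 ± 0.31 (adjusted p = 0.0104). The untreated defects held 70.1, 71.0 and 116, all above the CLCS libraries. MMP9, a gelatinase of osteoclasts and neutrophils, was at 14.1, 7.10 and 0.903 against 94.0, 48.2 and 22.4 normalised reads, which missed the threshold (2.96 ± 0.81, adjusted p = 0.108) and passed it with the replicate block (adjusted p = 0.0144). MMP19, found in synovium and vessels, was at 6.60, 15.2 and 6.32 against 27.9, 26.6 and 44.8 (1.78 ± 0.40, adjusted p = 0.0679). All 5 tested of 27 metalloproteinases and inhibitors had positive differences, while 55.1% of all tested genes had a negative one. Their median was 1.78, and MMP13 was the 1 that passed. The groups stood apart in 3 of the 5 and overlapped in MMP21 (0.34) and TIMP3 (0.96).

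The ADAMTS proteases, which include the aggrecan-cutting enzymes, had 6 tested members of 24, 0 called by limma with 1 at an unadjusted p under 0.05, and a median of 0.01. ADAMTSL4, a related protein without protease activity, was at 715, 740 and 963 normalised reads in healthy and at 362, 385 and 508 in CLCS samples. These groups were apart and tight, yet the difference of -0.95 ± 0.29 missed the threshold (adjusted p = 0.137). Cathepsins and serine proteases with their inhibitors had 11 tested members of 30, 0 called and 4 at an unadjusted p under 0.05, with a median of 0.70. The protease inhibitor SERPINE2 was at 449, 96.4 and 134 against 40.3, 43.3 and 34.9 normalised reads (-2.16 ± 0.55, adjusted p = 0.0882). Of the integrins and matrix receptors, 8 of 34 were tested, 0 were called with 1 at an unadjusted p under 0.05, and the median was 0.01.

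Of the genes of mineralising tissue, those for a mineral-binding protein and for type I collagen rose. Bone sialoprotein (IBSP), which nucleates mineral in bone and calcified cartilage, had 512, 192 and 243 normalised reads in healthy and 1548, 1828 and 1417 in CLCS samples. That is 315 ± 172 against 1598 ± 210 (SD, n = 3), an increase of 2.46 ± 0.40 (adjusted p = 0.0277), while untreated defects held 2323, 1946 and 559. Osteocalcin (BGLAP), a late osteoblast product, was at 126, 60.9 and 37.0 against 302, 223 and 238 normalised reads, which missed the threshold (1.92 ± 0.45, adjusted p = 0.072) and passed with the replicate block (adjusted p = 0.043). Osteopontin (SPP1), made by osteoblasts, osteoclasts and macrophages, was at 207, 32.5 and 54.2 against 460, 296 and 153, with overlapping groups (1.93 ± 0.71, adjusted p = 0.218). Of the 16 osteoblast and mineral markers 8 were tested, 2 rose (IBSP and COL1A1), 0 fell and 5 had an unadjusted p under 0.05, all of them higher. Of the 8 tested, 6 had a positive and 2 a negative difference. The median was 1.79, and the summed level of the list was 448.6 to 1294 normalised reads in healthy and 3231 to 4538 in CLCS samples. Most of the CLCS sum was IBSP and COL1A1, the latter at 2052, 1208 and 1326 normalised reads. How far the amount of bone in the sampled tissue had a part in these differences was not tested.

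Osteoclasts, which resorb bone, were represented by few reads. Cathepsin K (CTSK), their main collagen-cutting enzyme, was at 17.9, 9.13 and 0.903 normalised reads in healthy and at 53.7, 36.4 and 17.4 in CLCS samples. The groups overlapped, with a difference of 2.23 ± 0.83 (adjusted p = 0.225, or 0.0406 with the replicate block). Of 13 osteoclast markers 3 were tested and 0 called by limma, with 2 at an unadjusted p under 0.05, and the summed level was 11.75 to 53.71 normalised reads in healthy and 65.99 to 206.7 in CLCS samples.

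**Figure D4:**
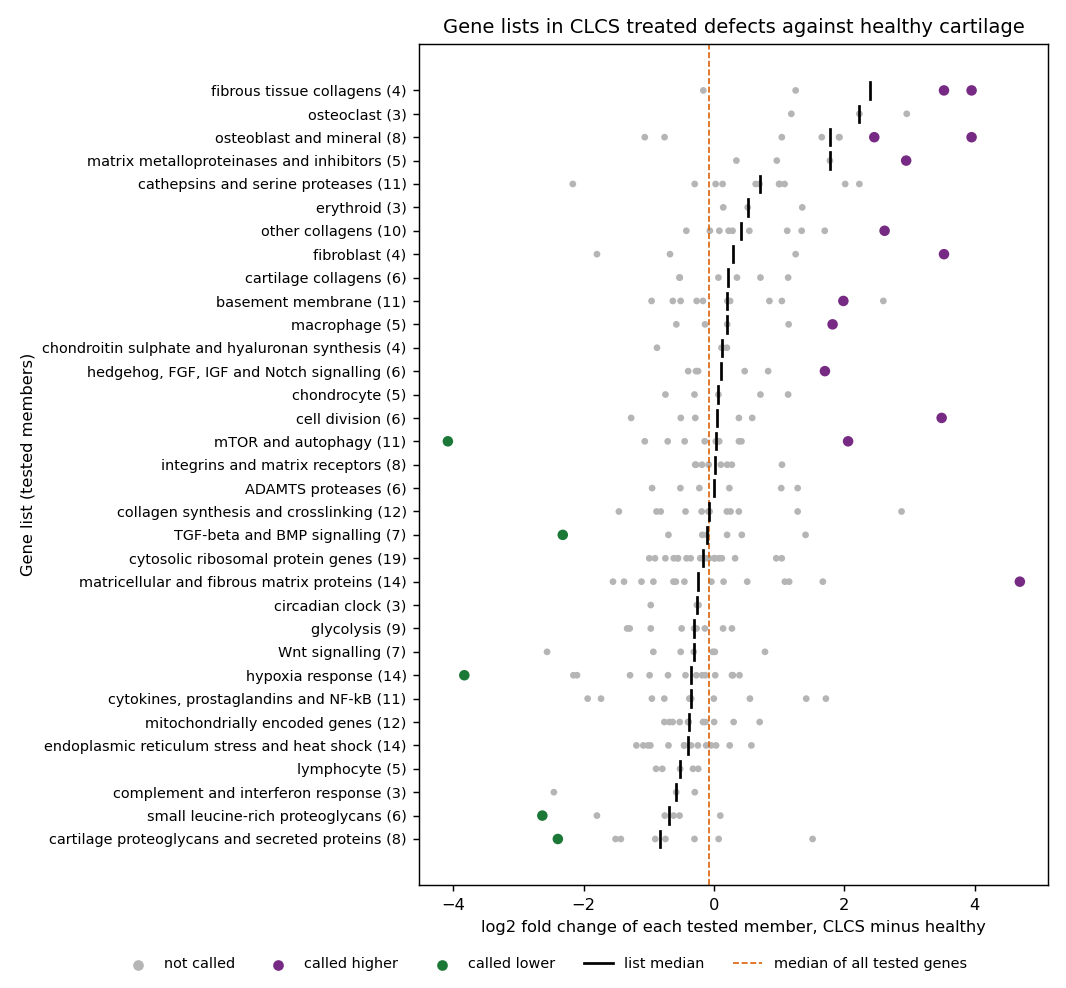
Each dot is the log2 difference, CLCS minus healthy, of 1 tested member of a gene list with at least 3 tested members, coloured purple (higher) or green (lower) where it passed the test, and the black bar is the median of the list. Osteoblast and fibrous collagen members lie mostly above 0, with medians of 1.79 and 2.39, while the medians of most lists lie within 1 of 0.

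Among secreted signals, gremlin (GREM1), which binds BMPs and keeps them from their receptors, fell. Its reads were 13, 18 and 16 in healthy, 2, 2 and 2 in CLCS and 3, 2 and 0 in untreated samples. The healthy level was 6.92 times that of the CLCS samples, with an exact 95% counting interval from 2.95 to 19.8 that covers counting error only (limma adjusted p = 0.0104). BMP6, a ligand of the same family, was read far more and was at 2168, 3977 and 1973 against 5938, 5272 and 10112 normalised reads, groups that did not overlap (1.41 ± 0.40, adjusted p = 0.117). GREM1 was the 1 called of 7 tested among 50 genes of TGF-beta and BMP signalling, with a median of -0.11. Of the Wnt list 7 of 59 were tested, 0 were called by limma with 1 at an unadjusted p under 0.05, and the median was -0.31.

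GLI1, the transcription factor that hedgehog signalling switches on, had 16.0, 19.3 and 10.8 normalised reads in healthy and 71.3, 39.4 and 47.3 in CLCS samples, with 51.2, 59.0 and 71.6 in untreated defects. The increase was 1.70 ± 0.35 (adjusted p = 0.0487, or 0.0532 with the replicate block). GLI1 lies within 1000 bases of ARHGAP9, which held 818, 989 and 366 reads in healthy and 1867, 1402 and 1298 in CLCS samples. As the strand setting of the count is not stated in the sources used here, reads of such neighbours cannot be told apart. GLI1 was the 1 gene called of 6 tested among 46 genes of hedgehog, FGF, IGF and Notch signalling, with a median of 0.11.

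Hypoxia genes, which chondrocytes use in a tissue without vessels, had 14 tested members of 31, of which 10 had a negative difference, beside 55.1% of all tested genes, and a median of -0.35 against -0.08. Carbonic anhydrase 9 (CA9), a cell surface enzyme switched on by low oxygen, was the 1 that fell, from 27.3, 18.3 and 62.3 to 1.03, 4.92 and 0 normalised reads (-3.83 ± 0.70, adjusted p = 0.0375). CA9 lies within 1000 bases of TPM2, which had 28, 103 and 71 reads in healthy and 14, 21 and 19 in CLCS samples. As for GLI1, reads of such neighbours cannot be told apart. HIF1A, the oxygen-regulated transcription factor itself, was at 194, 52.8 and 187 against 21.7, 19.7 and 52.3 normalised reads. Healthy replicate 2 and CLCS replicate 3 met at nearly the same level, and the difference of -2.10 ± 0.60 missed the threshold (adjusted p = 0.12, or 0.0444 with the replicate block). Glycolysis genes had 9 tested members of 27, 0 called by limma with 2 at an unadjusted p under 0.05, and a median of -0.30. The glycolytic enzyme GAPDH was at 85.7, 32.5 and 70.5 against 15.5, 22.6 and 32.4 normalised reads (-1.33 ± 0.45, adjusted p = 0.172).

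Of 53 genes of mTOR signalling and autophagy 11 were tested, 1 rose, 1 fell and the median was 0.03. EPG5, which lets autophagosomes fuse with lysosomes, had 4.71, 9.13 and 6.32 normalised reads in healthy and 30.0, 46.2 and 19.9 in CLCS samples, an increase of 2.06 ± 0.39 (adjusted p = 0.0392). UVRAG, a subunit of a lipid kinase complex that starts autophagosomes, had 12, 12 and 32 reads in healthy and 0, 0 and 0 in CLCS samples. It was at least 5.35-fold lower, counted against a floor of 3 reads per library (adjusted p = 0.0104). TSC2, a brake on mTOR, was at 2796, 5637 and 3361 against 2239, 1819 and 5111 normalised reads, with overlapping groups (-0.45 ± 0.47, adjusted p = 0.681).

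For dividing cells 6 of 38 genes were tested. OIP5, which helps to place centromere protein on new chromosomes, rose from 10.4, 1.01 and 9.94 to 103, 51.2 and 64.7 normalised reads (3.49 ± 0.68, adjusted p = 0.0444). The other 5 did not pass and the list median was 0.05. CDK4, a kinase of the entry into the cell cycle, was at 1705, 1188 and 1746 against 2214, 2015 and 2691 (0.59 ± 0.29, adjusted p = 0.353).

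TYROBP, the signal adaptor of myeloid cells and osteoclasts, was the 1 immune gene of the lists that passed. It had 6.60, 8.12 and 9.03 normalised reads in healthy and 27.9, 28.5 and 34.9 in CLCS samples, and its reads in untreated defects were 17, 9 and 166. Both groups of the comparison were tight and the increase was 1.82 ± 0.27 (adjusted p = 0.0188). Of 20 macrophage markers 5 were tested, 3 with a positive and 2 with a negative difference, and the median was 0.20. In 1 of them every CLCS library lay below every healthy one. The summed level of the list was 319.4 to 587.6 normalised reads in healthy and 807.9 to 1167 in CLCS samples. Most of that sum was STAB1, a scavenger receptor of tissue macrophages, at 250, 516 and 385 against 725, 696 and 1070 (1.15 ± 0.36, adjusted p = 0.152), which overlaps NT5DC2 in the genome. The defining markers CD163 and VSIG4 had 0 reads in all 6 libraries. Cytokine, prostaglandin and NF-kB genes (11 tested of 61, median -0.36) and complement and interferon genes (3 tested of 47, median -0.58) had 0 called members in limma, with 3 and 1 at an unadjusted p under 0.05. The complement regulator clusterin (CLU) was at 751, 72.1 and 160 against 44.4, 21.6 and 51.0 normalised reads (-2.46 ± 0.81, adjusted p = 0.165).

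The remaining marker lists were measured to see which other cells the tissue held. Fibroblast markers (4 tested of 14, COL1A2 called) summed to 421.2 to 797.1 normalised reads in healthy and 1154 to 2601 in CLCS samples. COL1A2 alone held 180, 50.7 and 35.2 of these in healthy and 1099, 702 and 675 in CLCS samples. Of the 4 tested members 2 had a positive and 2 a negative difference, with a median of 0.29. Mural cell markers summed to 321.6 to 425.2 against 766.6 to 1112, nearly all of it the smooth muscle myosin MYH11, at 320, 403 and 312 against 799, 750 and 1073 normalised reads. MYH11 missed the threshold in limma (1.33 ± 0.28, adjusted p = 0.0552) and passed in edgeR (adjusted p = 0.0285), while the smooth muscle actin ACTA2 had 0 reads in all 6 libraries. Skeletal muscle markers summed to 80.41 to 116.7 in healthy and 32.37 to 47.53 in CLCS samples, and lymphocyte markers to 187.8 to 196.0 and 105.8 to 158.4. Synovial lining markers (793.6 to 4192 against 581.6 to 1103), neutrophil (16.26 to 49.73 against 17.57 to 26.15), erythroid (37.69 to 78.14 against 71.3 to 127), adipocyte (60.3 to 83.12 against 76.75 to 83.42) and nerve markers (54.65 to 73.18 against 62.0 to 95.87) overlapped between the groups. Mast cell markers stayed under 3.735 normalised reads or at that level. None of these lists other than fibroblast had a called member, and the part of such cells in the results was not tested.

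No tested gene of the cytosolic ribosome list or of the mitochondrial genome passed the test in limma. The 19 tested cytosolic ribosomal protein genes had a median of -0.16 and the 12 tested mitochondrially encoded genes one of -0.39, with 1 and 0 at an unadjusted p under 0.05. RPL10 was at 2294, 1349 and 1579 against 3750, 3304 and 3435 normalised reads (1.04 ± 0.30, adjusted p = 0.121). Genes of endoplasmic reticulum stress (14 tested of 41, median -0.40) and of the circadian clock (3 tested of 18, median -0.26) had 0 called members, with 2 and 1 at an unadjusted p under 0.05. The chaperone HSP90B1 differed by -0.45 ± 0.35 (adjusted p = 0.56). No immediate early gene had enough reads for a test. Of the 25 genes that the study names for its sequencing 20 were tested and 5 rose (COL1A1, COL1A2, COL4A2, COL22A1 and MMP13), with a median of -0.37, and as they were picked on these samples they are not independent evidence of a direction.

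Most genes that differed stood outside every list, 88 of the 104, and 70 of these have a symbol. METTL7B, a methyltransferase of the endoplasmic reticulum, rose from 6.60, 11.2 and 3.61 to 85.8, 74.8 and 137 normalised reads (3.69 ± 0.43, adjusted p = 0.0104). DDX39A, a helicase that takes part in the export of messenger RNA, rose from 48.1, 59.9 and 37.9 to 254, 296 and 278 (2.50 ± 0.28, adjusted p = 0.0104). Both groups of DDX39A were tight, and untreated defects held 188, 291 and 356. HMGXB3, a DNA-binding protein with an HMG box, was among the most read of the called genes, with 1121, 1513 and 984 normalised reads in healthy and 8076, 6440 and 5590 in CLCS samples (2.48 ± 0.30, adjusted p = 0.0105). It lies within 1000 bases of CSF1R, the receptor for the macrophage growth factor, which had 5, 7 and 2 reads in healthy and 11, 13 and 9 in CLCS samples. ERBB2, a receptor tyrosine kinase of the EGF receptor family, rose from 255, 263 and 234 to 750, 554 and 806 (1.47 ± 0.27, adjusted p = 0.0381, or 0.0562 with the replicate block).

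Several of the largest increases were in genes best known from other tissues. The F-box protein gene FBXL13 went from 5.65, 13.2 and 6.32 to 136, 261 and 121 normalised reads (4.21 ± 0.43, adjusted p = 0.0104). KCTD19, known from male meiosis, went from 42.4, 153 and 61.4 to 1247, 616 and 1906 (3.93 ± 0.58, adjusted p = 0.0188). The sodium and proton exchanger SLC9A5 went from 0, 7.10 and 8.13 to 66.1, 59.0 and 52.3 (3.83 ± 0.80, adjusted p = 0.0496). In the RefSeq annotation these genes have neighbours, as FBXL13 overlaps LRRC17 and KCTD19 overlaps PLEKHG4. SLC9A5 lies within 1000 bases of PLEKHG4 too, and of FHOD1. FHOD1 had 73, 68 and 111 reads in healthy and 30, 46 and 12 in CLCS samples. LRRC17 had 0 reads in all 6 libraries, and PLEKHG4 had 13, 13 and 20 in healthy and 4, 5 and 13 in CLCS samples. The folate carrier SLC19A1 went from 77.3, 137 and 78.6 to 796, 686 and 1149 normalised reads (3.17 ± 0.35, adjusted p = 0.0104). The gene for melanin-concentrating hormone, PMCH, went from 4.71, 6.09 and 10.8 to 75.4, 47.2 and 73.5 (3.05 ± 0.37, adjusted p = 0.0105). Further increases of this size were in CRYBG2 (3.11 ± 0.43, adjusted p = 0.016), in MROH2B (3.06 ± 0.57, adjusted p = 0.0375) and in ENSOCUG00000023026, without a symbol (3.80 ± 0.50, adjusted p = 0.0134). In METTL4, a nucleic acid methyltransferase, 2, 1 and 2 reads in healthy stood against 26, 13 and 19 in CLCS samples, a ratio of 13.1 with a counting interval from 5.31 to 41.9. ENSOCUG00000027376 had a ratio of 29.9, with a counting interval from 12.5 to 93.5.

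The decreases outside the lists included genes with high read numbers. NUDT6, a nudix hydrolase whose gene overlaps that of the growth factor FGF2, had 2325, 5246 and 2707 normalised reads in healthy and 225, 594 and 295 in CLCS samples. It fell by 3.23 ± 0.47 (adjusted p = 0.0179), and untreated defects held 245, 624 and 99.7. FGF2 was not analysed here. The membrane protein gene TMEM184B fell from 1197, 1353 and 1682 to 187, 231 and 324 (-2.53 ± 0.31, adjusted p = 0.0111). BEST1, a chloride channel gene that overlaps the ferritin gene FTH1, fell from 134, 152 and 156 to 33.1, 30.5 and 34.9 (-2.13 ± 0.25, adjusted p = 0.0104). Both groups were tight, with untreated defects at 39.4, 55.0 and 35.4. The largest fitted decrease was in ENSOCUG00000005327, at 4478, 3858 and 6407 against 163, 365 and 361 normalised reads (-4.10 ± 0.40, adjusted p = 0.0104). Another gene without a symbol, ENSOCUG00000005336, fell from 830, 488 and 413 to 62.0, 69.9 and 115 (-2.78 ± 0.38, adjusted p = 0.016).

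Talin (TLN1), which ties integrins to the actin skeleton, fell from 49.9, 150 and 102 to 19.6, 19.7 and 14.9 normalised reads (-2.29 ± 0.42, adjusted p = 0.0375). The guidance factor SEMA3D fell from 64.1, 33.5 and 20.8 to 6.20, 9.84 and 4.98 (-2.24 ± 0.45, adjusted p = 0.0483), and PPP1R3C, which steers a phosphatase to glycogen, from 50.9, 31.5 and 28.0 to 5.17, 8.86 and 8.72 (-2.12 ± 0.35, adjusted p = 0.0277). These 3 genes had low but separate values in each CLCS library. The magnesium channel gene MRS2 of mitochondria fell by 2.61 ± 0.45 (adjusted p = 0.0307) and DACT2, a regulator of Wnt and TGF-beta signals, by 2.57 ± 0.48 (adjusted p = 0.0375).

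Some decreases ended at or near 0 reads. TMIE, known from the hair cells of the inner ear, had 32, 13 and 20 reads against 0, 1 and 0, a ratio of 57.4 with a counting interval from 9.95 to 2300. MRPL35 of the mitochondrial ribosome had a ratio of 8.40 (3.02 to 32.4). For the nuclear pore gene NUP54, with 16, 11 and 23 reads against 1, 0 and 3, the counting interval of the ratio ran from 4.06 to 42.1. For ENSOCUG00000023022, with 9, 27 and 15 reads against 1, 2 and 0, it ran from 4.86 to 75.3. These intervals are wide, since the CLCS reads summed to 1 in TMIE, 3 in ENSOCUG00000023022 and 4 each in NUP54 and MRPL35. Low reads were common, as 36 of the 104 called genes had under 50 reads in every library and 65 had under 100.

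A pair of called genes also lay side by side. NCAPH2, a condensin subunit, went from 40.5, 90.3 and 41.6 to 173, 199 and 200 normalised reads (1.81 ± 0.37, adjusted p = 0.0487). LMF2, which lies within 1000 bases of it, went from 7.54, 16.2 and 8.13 to 75.4, 58.1 and 36.1 (2.32 ± 0.40, adjusted p = 0.0316). Of the 81 called genes found in the RefSeq table, 52 overlapped another gene or lay within 1000 bases of one. As only 77.9% of the called and 76.9% of the tested genes were found there, a comparison of their shares is void.

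The untreated defects stood on the same side of healthy cartilage. For all 70 genes that rose, the untreated mean lay above the highest healthy library, and for all 34 that fell it lay below the lowest. The 2 comparisons share the healthy libraries, and the called genes were picked by their difference from them, so this is no independent support. The share of all tested genes with such an untreated mean is not given here. Between CLCS and untreated defects directly, 0 of 3275 genes (0.0%) passed limma, where the smallest adjusted p was 0.944 and 95 genes had an unadjusted p under 0.05. The counts were also 0 in edgeR (88 genes at an unadjusted p under 0.05), in DESeq2 (71) and in limma with the replicate block (164). Of the 104 called genes 84 could be tested in this contrast. They included all 70 genes that rose, so every called gene left out was a decrease, among them OGN, GREM1 and CA9. Of the 95% intervals of the 84 genes, 81 included 0. At an unadjusted p under 0.05 in limma there were 3 of the 84, beside 95 of all 3275 genes. The median difference of the 84 genes was 0.222 in size and the median interval was 1.86 wide, so that small differences were not detectable with these libraries.

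In single genes the direct difference between CLCS and untreated defects was as follows. For COL1A1 it was 0.16 with a 95% interval from -0.78 to 1.10, and for COL22A1 0.75 with an interval from -0.21 to 1.72. MMP13 was lower in CLCS than in untreated samples by -1.10 (interval -1.90 to -0.29) and ENSOCUG00000005327 higher by 1.57 (interval 0.68 to 2.45), yet both had an adjusted p of 0.996. COL2A1 differed by 2.33 with an interval from -0.09 to 4.75, and COL9A2 by 2.03 with an interval from 0.01 to 4.04. Neither COL2A1 nor COL9A2 passed after adjustment, and untreated replicate 3, with 458 normalised reads of COL2A1, stood far below the other untreated libraries.

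**Figure D5:**
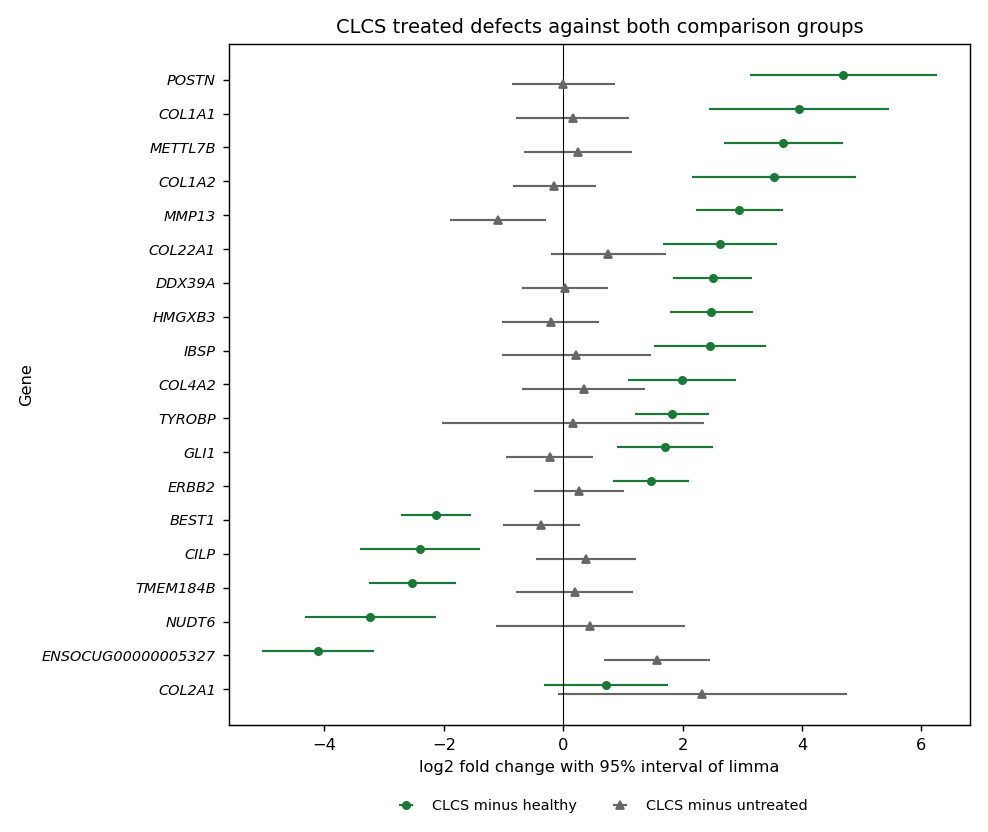
For 19 genes the log2 difference of CLCS from healthy samples (green circles) and from untreated samples (grey triangles) is drawn with its 95% limma interval on the horizontal axis. The circles of the called genes lie away from 0, that of COL1A1 at 3.95, while the triangle of COL1A1 lies at 0.16 and most other triangles have intervals that cross 0.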

How the data were processed

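The authors selected polyA RNA, used TopHat and Bowtie to align the pairs to OryCun2.0, counted alignments per gene with eXpress and normalised with DESeq2 (versions, annotation release and strand setting are not given in the sources used here). The table deposited holds a signal for each gene, counts divided by the size factor of the library, although the columns are headed as counts. Dividing each column by its smallest value above 0 gave whole reads for 100% of values, within 0.01, and the step equalled the inverse DESeq2 size factor within 6.2e-10. The table also holds columns of the authors' own fold changes and p-values, which were not used.

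Groups and replicate numbers came from labels and headers. Genes kept by filterByExpr on recovered reads of the 6 libraries were tested with limma 3.58.1 (lmFit, eBayes; R 4.3.3) on log2(value + 1), with Benjamini-Hochberg adjustment and a threshold of 0.05. Differences on this scale understate the change of low genes, and each ± after one is a standard error. Tables were made with pandas 2.3.3 in Python 3.11.15. edgeR 4.0.16 and DESeq2 1.42.0 on recovered reads, a replicate block, other pseudocounts, filters, scalings and leaving out each library were alternatives. Pearson correlations across genes of deviations from the group mean were 0.279, 0.144 and 0.173 between CLCS and healthy libraries of the same number, and -0.194 to 0.0301 for the other numbers. Equal numbers were thus taken as a possible pairing, from the data and not from a stated pairing. The main test left this pairing out. The replicate block, run as an alternative, called 125 genes in limma, 85 of them among the 104.

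The comparison and the gene lists were chosen with earlier results of these data known. Genes named were the 15 largest increases and decreases whose groups do not overlap, called list members, and up to 4 well-read uncalled members of a list. One gene of this rule is not reported here. DDX39A, HMGXB3, ERBB2, BEST1, TLN1, SEMA3D, PPP1R3C, the neighbouring pair and some uncalled members were chosen with their values in view. The lists comprise the matrix, protease, receptor, signalling, inflammation, metabolism, stress and cell division groups, the cell markers, and the study's own genes given in the results. A floor was 3 reads per library, and ratios of genes at 1 to 3 reads carry exact 95% counting intervals. Neighbours came from RefSeq (mOryCun1.1), which carries no strand here, so opposite strands were not told apart. On simulated data with 3294 genes and 200 changed, limma recovered 63% at a log2 change of 2 (5.26% of calls false) and 96% at 3 (4.95%), and made 1 call without changes.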

Additional observations from a re-analysis of the deposited data

How the results depend on the processing

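The 104 genes became 253 in DESeq2 (149 higher, 104 lower), 13 with no filter on low reads (9 higher, 4 lower), 194 in edgeR with the replicate block (125 higher, 69 lower) and 125 in limma with the replicate block (73 higher, 52 lower), which shared 85 genes with the 104. With a mean of at least 20 reads in the 6 libraries 82 were called, 21 of them lower. edgeR called 123, and the other scalings, pseudocounts and fits called 82 to 131. The share of calls that were higher was 67.3%, 58.4% with the block and 58.9% in DESeq2. Leaving out a library gave 0 to 81 calls, 0 to 56 higher and 0 to 25 lower, with 0 without CLCS replicate 1, 25 and 31 without CLCS replicates 2 and 3, and 56, 81 and 19 without healthy replicates 1, 2 and 3. The 16 called list members became 35 in DESeq2, 3 without a filter, 29 in edgeR with the block and 0 to 16 without a library. In total 80 of the 104 genes also passed edgeR, DESeq2 and the block, 15 passed in 5 of the 6 fits without a library and 34 in none. The block in limma ended or made the calls given in the results. In edgeR with the replicate block SERPINE2 and CLU (adjusted p = 0.03 each), MYH11 (0.0302), SPP1 (0.0337) and COL4A1 (0.0347) also passed, as did MMP9, CTSK, BGLAP and HIF1A. Besides DCN, DESeq2 also passed COL4A1, MMP9, MMP19, BGLAP, BMP6, MYH11, STAB1, RPL10, ADAMTSL4, CYTL1, HIF1A, SERPINE2 and CLU. The log2 fold change of COL11A2, 0.07, turned to -0.0028 in edgeR, -0.017 in DESeq2 and -0.017 in edgeR with DESeq2 size factors, and ran from -0.29 to 0.51 without a library. The log2 fold change of COL9A2, 0.35, ran from -0.071 to 0.78 without a library. The causes were not tested. The low recovered counts limit the result, since only 3294 of the 14870 listed genes could be tested, and 65 of the called genes had under 100 reads in every library.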
